A study of Mus musculus with 2 samples.

Results

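The levels and transcript models of 10 mouse ETS genes were examined: Spi1, Fli1, Erg, Etv6, Gabpa, Elf1, Elf2, Ets1, Ets2 and Elk1. They were chosen by name and kept whether detected or not, and their values come from gene tables of 43346 Ensembl genes, among which 26 ETS genes were found. Gene positions below are on mm10, from the GENCODE M21 annotation. The study measured polyadenylated RNA by paired-end sequencing in G1E-ER4 cells, an immortalized erythroid line. Its parent line lacks Gata1, and G1E-ER4 carries GATA1 fused to an estrogen receptor domain. In these samples Gata1 was restored and differentiation was induced with estradiol, at a dose and time that the labels do not give. There is 1 group with 2 libraries, biological replicates 2 and 1 of one line labelled male, postnatal and 0 day old. No untreated or Gata1-null library was analysed here, so every cell described carries the fusion and the hormone. Both libraries cite the same biological source, so the spread between them may be technical. The tables summed to 51923116 estimated counts in replicate 2 and 68901065 estimated counts in replicate 1.

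ETS factors are transcription factors that share a winged helix-turn-helix DNA-binding domain and read sites with a GGAA core. Because the domain is so alike, family members can compete for one site, and what sets them apart is largely their level, their partners and their control by signalling. In blood cells Spi1, which encodes PU.1, drives myeloid and B cell fates and opposes GATA1, Fli1 and Erg act in stem cells, megakaryocytes and endothelium, and Etv6 is a repressor needed by blood stem cells.

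The erythroid label held, with 12 of 12 erythroid markers reaching 1 TPM, a length-scaled measure of transcript abundance, in each library and summed levels of 19640 TPM in replicate 2 against 17158 TPM in replicate 1. The restored gene, Gata1, stood at 2430 TPM in replicate 2 against 1498 TPM in replicate 1. It is 1 of the 12 markers, but the line carries it in the fusion, so its detection does not test the label. The markers ranged from Alas2, the erythroid haem synthesis enzyme, at a mean of 1.72 TPM, up to the globins Hbb-bs and Hba-a1, at 7588 and 7841 TPM. None of 12 myeloid, 8 B cell or 8 endothelial markers reached 1 TPM in both libraries, and 1 of 8 T cell markers did, Lck at 2.63 TPM. Among all protein-coding genes 39% did. Summed myeloid levels were 0.67 TPM in replicate 2 and 0.06 TPM in replicate 1, with 8 of the 12 markers, Lyz2, Itgam and Cd14 among them, at 0 counts in both.

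Promoter windows of RefSeq on GRCm38.p6, running from 250 bases before to 50 bases after a start site, were found for 7 of the 10 genes, 11 windows in all. Each was scored by the estimated counts of transcript models that begin within 150 bases of its start, a limit chosen after the distances were seen. Elf1 and Elf2, a pair of related factors, each have alternative starts. They are shown because they divide their estimated counts between starts differently. Gabpa is shown because its window alone held the ETS word searched. That word was CCGGAAG, on both strands, and capitals mark it. Elf1 window 1 is chr14:79480944-79481243 and window 2 is chr14:79515424-79515723, both on the plus strand. Elf2 window 1 is chr3:51340595-51340894 and window 2 is chr3:51277465-51277764, both on the minus strand. The Gabpa window is chr16:84834874-84835173 on the plus strand.
Elf1 window 1: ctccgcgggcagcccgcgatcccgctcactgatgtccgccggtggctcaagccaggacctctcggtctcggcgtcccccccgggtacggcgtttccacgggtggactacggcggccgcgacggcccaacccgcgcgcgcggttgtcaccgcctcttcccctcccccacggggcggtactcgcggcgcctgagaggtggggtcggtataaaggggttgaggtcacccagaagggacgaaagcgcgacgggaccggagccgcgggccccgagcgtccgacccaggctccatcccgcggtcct
Elf1 window 2: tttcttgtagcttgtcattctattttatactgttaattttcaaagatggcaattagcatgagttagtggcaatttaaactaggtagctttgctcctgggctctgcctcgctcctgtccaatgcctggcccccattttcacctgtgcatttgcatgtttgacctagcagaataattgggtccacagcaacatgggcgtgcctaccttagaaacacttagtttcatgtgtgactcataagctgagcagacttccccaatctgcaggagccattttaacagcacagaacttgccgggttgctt
Elf2 window 1: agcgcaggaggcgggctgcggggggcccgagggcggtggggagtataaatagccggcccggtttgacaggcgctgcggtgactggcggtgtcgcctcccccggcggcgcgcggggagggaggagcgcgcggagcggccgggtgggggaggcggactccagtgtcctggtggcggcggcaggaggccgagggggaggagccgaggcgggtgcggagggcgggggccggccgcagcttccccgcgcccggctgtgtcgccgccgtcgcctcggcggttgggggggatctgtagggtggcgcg
Elf2 window 2: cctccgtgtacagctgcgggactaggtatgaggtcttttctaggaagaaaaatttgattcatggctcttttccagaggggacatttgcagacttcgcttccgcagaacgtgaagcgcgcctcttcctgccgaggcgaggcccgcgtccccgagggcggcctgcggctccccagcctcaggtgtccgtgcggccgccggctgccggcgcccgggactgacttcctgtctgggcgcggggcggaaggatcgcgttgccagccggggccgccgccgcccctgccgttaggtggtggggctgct
Gabpa window: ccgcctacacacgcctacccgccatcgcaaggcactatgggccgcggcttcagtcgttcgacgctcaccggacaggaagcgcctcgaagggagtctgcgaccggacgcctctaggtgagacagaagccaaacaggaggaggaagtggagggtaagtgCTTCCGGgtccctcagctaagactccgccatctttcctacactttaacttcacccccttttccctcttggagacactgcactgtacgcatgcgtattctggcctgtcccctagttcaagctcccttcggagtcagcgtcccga

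Nearly all Elf1 signal was assigned to its upstream start. Models beginning at window 1 held 100% of Elf1 counts in replicate 2 and 99.6% in replicate 1, and those at window 2 held 0 counts in replicate 2 and 9.1 counts in replicate 1. Window 1 is 73.0% G and C and window 2 is 44.7%. Both Elf1 models encode the same number of residues, 612.

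Elf2 counts were assigned mainly to models at both windows and to 1 further start. A complete 593-residue model beginning 14657 bases downstream of the window 1 start held 10.6% of counts in replicate 2 and 2.98% in replicate 1. Another model, beginning 14615 bases downstream of that start, held 0 counts in replicate 2 and 5.12 in replicate 1. A retained-intron model farther inside the gene held 0 counts in replicate 2 and 1 in replicate 1. Use of a start was not measured, since counts are estimates assigned to whole models. Models at window 1 held 48.8% of Elf2 counts in replicate 2 and 47.3% in replicate 1, and models at window 2 held 40.6% in replicate 2 and 49.4% in replicate 1. On the TPM scale window 2 was the higher in both libraries, at 30.9 TPM in replicate 2 against 29.9 TPM in replicate 1, beside 14.5 and 15.4 TPM in the same order for window 1. The difference between the scales follows from length, since the leading model at window 2 is 378 bases long.

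The word CCGGAAG occurred once in the Gabpa window, as its reverse complement, beginning 93 bases before the start. It occurred in 1 of the 11 windows, against 8.86% of all 32851 RefSeq windows. The words AGATAA and TGATAA, forms of the GATA site, were likewise searched on both strands and occurred in 1 of the 11 windows, against 18.6% of all windows, and no window held both kinds of word. The window with a GATA word was the third of Erg, whose models held 56.1% of Erg counts in replicate 2 and 56.7% in replicate 1, while no model with a known start gave counts to its first and second windows. The remaining Erg counts, 43.9% in replicate 2 and 43.3% in replicate 1, lay on a model whose start the later annotation does not give. These words were chosen after the files had been read, and a match is a description of the letters alone.

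Of the 10 genes, 8 reached 1 TPM in each library. The share was 39% of protein-coding genes and 20.5% of all Ensembl genes at the same minimum. The median of the 10 mean levels was 12.6 TPM, beside 0.025 TPM over all protein-coding genes and 20.5 TPM over those protein-coding genes past the minimum. Erg fell short of the minimum, and Ets1 had no count.

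**Figure D1:**
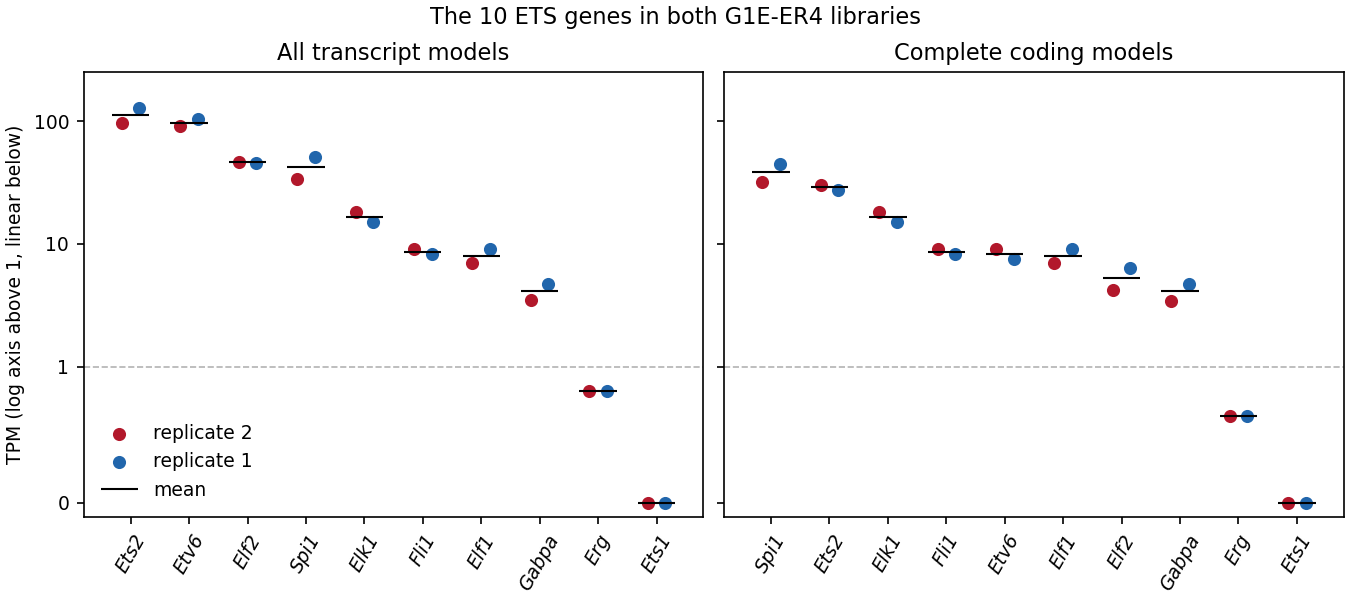
Level of each of the 10 ETS genes in TPM (log axis above 1, linear below, dashed line at 1) in replicate 2 and replicate 1, with a bar at the mean, from all transcript models on the left and from complete coding models on the right. Ets2 and Etv6 lead on the left with means of 113 and 97.3 TPM, and Spi1 leads on the right with 38.3 TPM.

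Spi1 (chr2:91082390-91115756, plus strand) was expressed in these GATA1-restored cells. It stood at 33.6 TPM from 2710 counts in replicate 2 and 51.2 TPM from 5167 counts in replicate 1, averaging 42.4 ± 12.5 TPM (SD, n = 2). Its 2034-base model, which encodes 272 residues, held 94.3% of its TPM in replicate 2 and 87.8% in replicate 1. An incomplete 402-base model held the rest, 5.66% in replicate 2 and 12.2% in replicate 1. Almost all Spi1 signal therefore lay in one complete model, which was lower in replicate 2, at 31.7 TPM, than in replicate 1, at 44.9 TPM.

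GATA1 and PU.1 are known to bind and inhibit each other. Gata1 was 72.4 times Spi1 in TPM in replicate 2 and 29.3 times in replicate 1. Both genes contributed to the gap between these ratios, since Gata1 was higher and Spi1 lower in replicate 2. Gata2, the related factor of progenitors, was 26.7 times Spi1 in replicate 2 and 20.1 times in replicate 1. These are ratios of RNA levels per length, and reads from the Gata1 fusion and from the Gata1 locus cannot be told apart in a gene total.

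Genes known as PU.1 targets in myeloid and B cells were mostly undetected beside Spi1. Of 20 listed, 2 reached 1 TPM in each library, against 39% of protein-coding genes. No count was found for 8, among them Itgam, Lyz2 and Cd14. Of all 21474 protein-coding genes 8895 had no count, a similar share. Csf1r, the macrophage growth factor receptor, had 2 counts in replicate 2 and 1 count in replicate 1. Btk, a kinase of B cell receptor signalling, was the highest at 10.6 TPM in replicate 2 against 5.77 TPM in replicate 1. Its scaled counts, from 294 in replicate 2 and 394 in replicate 1, differed less, by a log2 ratio of 0.09 (exact binomial test, adjusted p = 0.48). Cd68, a lysosomal glycoprotein, stood at 1.16 TPM in replicate 2 against 1.22 TPM in replicate 1. The next, Csf2ra, a subunit of the GM-CSF receptor, and Ncf4, an oxidase subunit, had means of 0.91 and 0.755 TPM. Ncf4 stood at 1.39 TPM from 28 counts in replicate 2 and 0.12 TPM from 5 counts in replicate 1. Mpo had 19 counts in replicate 2 and 2 in replicate 1. Of 6 targets tested between the libraries, 2, Ncf4 and Mpo, were called higher in replicate 2, against 34.7% of all genes tested. In replicate 1 the number called higher was 0, against 34.4%. The list's median was 0.005 TPM, beside 0.025 TPM over all protein-coding genes.

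Fli1 (chr9:32422204-32542861, minus strand) and Erg (chr16:95359169-95586593, minus strand) form one subgroup of the family and were far apart in level. Fli1 stood at 9.0 TPM from 1283 counts in replicate 2 and 8.32 TPM from 1583 counts in replicate 1, averaging 8.66 ± 0.481 TPM (SD, n = 2). Erg stood at 0.82 TPM in both, from 55 counts in replicate 2 and 72 counts in replicate 1. Fli1 was thus 10.98 times Erg in replicate 2 and 10.1 times in replicate 1, and its 3318-base model, encoding 452 residues, held 100% of its TPM in both libraries. Runx1, a partner of Fli1 in megakaryocytes, was 23.5 times Fli1 in replicate 2 and 27.5 times in replicate 1.

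The few Erg counts fell on 2 models. A 1222-base model encoding 387 residues held 77.6% of Erg TPM in replicate 2 and 78.1% in replicate 1, and a 3062-base model absent from the later annotation used for classes held 22.4% in replicate 2 and 21.9% in replicate 1. The authors' posterior mean values gave the shorter model 31.7% in replicate 2 and 43.0% in replicate 1, so its share depends on the estimate used.

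Megakaryocyte genes known as FLI1 targets were split. Of 14 listed, 4 reached 1 TPM in each library, against 39% of protein-coding genes, and the list's median was 0.28 TPM. The 4 were Nfe2, a factor shared with erythroid cells, at 157 ± 10.3 TPM, Gp5 at 119 ± 8.02 TPM, Gp1ba at 32.9 ± 2.75 TPM and Itga2b at 23.7 ± 7.90 TPM (SD, n = 2 each). Gp5, Gp1ba and Itga2b encode platelet surface proteins. Gp6, Ppbp and Selp, platelet genes of the same list, had no count.

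Ets1 and Ets2 are close relatives whose proteins are activated by the ERK kinases, and only Ets2 was detected. Ets1 (chr9:32636221-32757820, plus strand) had 0 counts in replicate 2 and replicate 1, against 6640 and 9232 counts in the same order for Ets2 (chr16:95702075-95721051, plus strand). A count of 0 allows a share of up to 5.78e-06% of the counts in replicate 2 and 4.35e-06% in replicate 1, the worth of 3 counts. In each pair of neighbours 1 gene was detected: Fli1 was detected and Ets1 was not across a gap of 93359 bases on chromosome 9, and Ets2 was detected and Erg was below the minimum across 115481 bases on chromosome 16. Each pair lies on opposite strands, and no protein-coding gene lies within either gap.

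Ets2 was the highest of the 10 genes by gene total, at 97.2 TPM in replicate 2 against 129 TPM in replicate 1, averaging 113 ± 22.3 TPM (SD, n = 2). Most of that total was assigned to a short model. A 654-base model, absent from the later annotation, held 67.8% of Ets2 TPM in replicate 2 and 78.3% in replicate 1, and the complete 3890-base model, encoding 468 residues, held 31.2% in replicate 2 and 21.5% in replicate 1. By counts the order turned round: the complete model held 76.8% of Ets2 counts in replicate 2 and 67.3% in replicate 1.

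Etv6 (chr6:134035700-134270158, plus strand) came next by gene total, at 90.4 TPM in replicate 2 against 104 TPM in replicate 1, averaging 97.3 ± 9.74 TPM (SD, n = 2). By TPM its leading model differed between the libraries, whereas by counts a complete model led in both. A 915-base retained-intron model held 57.1% of Etv6 TPM in replicate 2 and 32.9% in replicate 1, and a 373-base processed transcript held 32.9% in replicate 2 and 59.8% in replicate 1. The main complete model, 5548 bases long and encoding 485 residues, held 9.67% of TPM in replicate 2 and 6.77% in replicate 1, but 49.6% of counts in replicate 2 and 47.6% in replicate 1. Both short models begin far inside the gene, and the other 8 genes with counts kept the same leading model by TPM in both libraries.

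Elf2 (chr3:51252720-51340663, minus strand) had nearly the same gene total in both libraries, at 46.7 TPM in replicate 2 against 45.8 TPM in replicate 1, averaging 46.3 ± 0.636 TPM (SD, n = 2). Its total too lay mostly outside complete coding models. The 378-base model at window 2, which has an incomplete coding end, held 60.7% of Elf2 TPM in replicate 2 and 53.8% in replicate 1. A 1083-base model of the nonsense-mediated decay class, beginning at window 1, held 29.1% in replicate 2 and 31.7% in replicate 1. The highest complete model, encoding 521 residues, held 3.74% in replicate 2 and 10.01% in replicate 1.

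**Figure D2:**
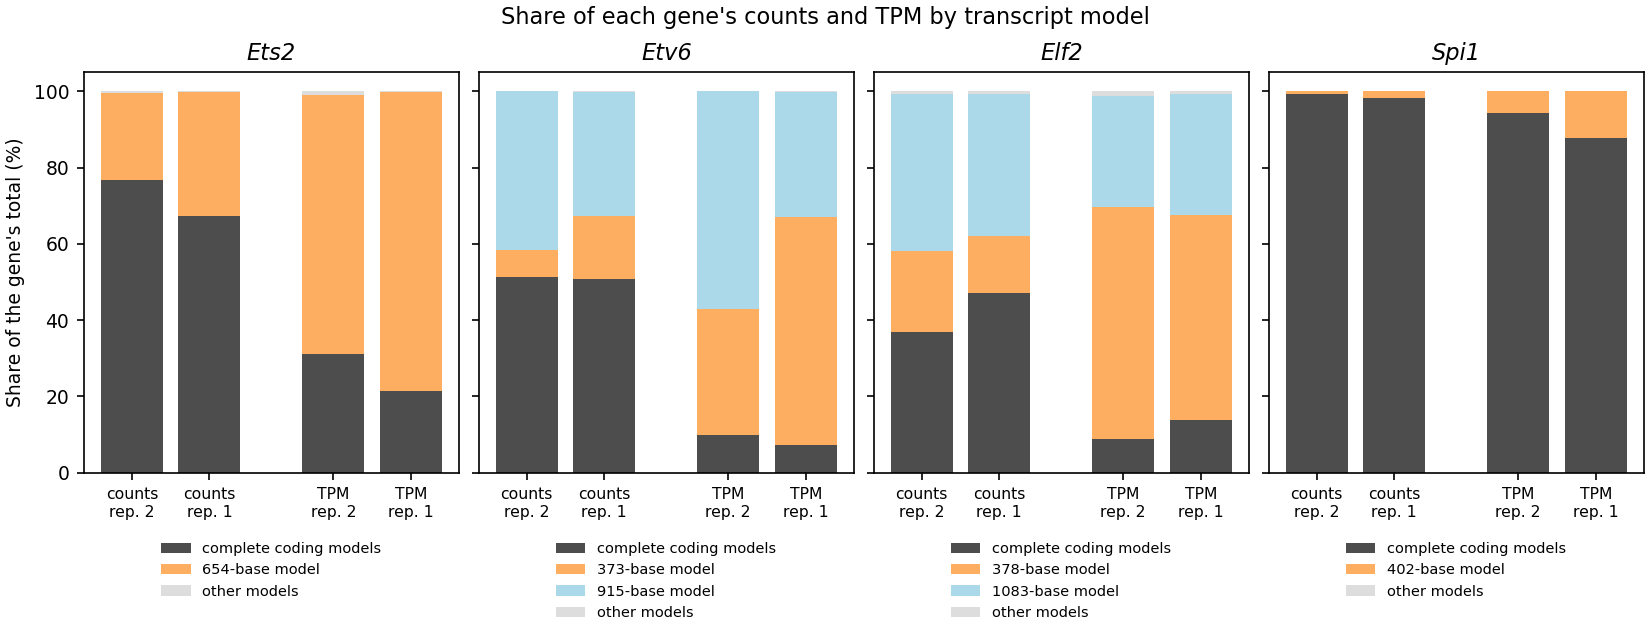
Share of each gene's estimated counts (left pair of bars) and TPM (right pair) held by complete coding models and by the leading other models, in percent, for Ets2, Etv6, Elf2 and Spi1 in replicate 2 and replicate 1. Complete models hold 76.8% of Ets2 counts but 31.2% of its TPM in replicate 2, whereas those of Spi1 hold 99.2% of counts and 94.3% of TPM there.

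Levels were therefore also summed over complete coding models alone, meaning protein-coding models with both ends of the coding sequence, an alternative chosen after the data were seen. Complete models held under 50% of the TPM in both libraries for 3 of the 8 detected genes, Ets2, Etv6 and Elf2. The same was true of 23.8% of the 8376 protein-coding genes past the minimum. Whether the short models exist as RNA was not tested.

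On the complete coding scale Spi1 became the highest of the 10, at a mean of 38.3 ± 9.38 TPM, and Ets2 followed at 29.0 ± 1.90 TPM (SD, n = 2 each). Etv6 stood at 9.02 TPM in replicate 2 against 7.49 TPM in replicate 1, averaging 8.26 ± 1.08 TPM (SD, n = 2). Elf2 stood at 4.18 TPM in replicate 2 against 6.33 TPM in replicate 1, averaging 5.26 ± 1.52 TPM (SD, n = 2). The sum over the 10 genes was 113 TPM in replicate 2 and 124 TPM in replicate 1 on this scale, against 306 and 368 TPM in the same order over all models. Spi1 held 32.1% of the sum of complete models, against 12.4% of the sum of all models.

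The order of the 10 genes can be read only where neighbours do not overlap. By gene total the ranges of the libraries overlapped between Ets2 and Etv6, between Elf2 and Spi1 and between Fli1 and Elf1, and all other neighbours were apart. By complete coding models they overlapped between Fli1 and Etv6, Etv6 and Elf1, and Elf2 and Gabpa. Spi1 and Ets2 were apart on that scale by little in replicate 2, where their ratio was 1.04, and by more in replicate 1, where it was 1.63. Elk1 was above Fli1 and Gabpa above Erg on both scales.

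Elk1 (chrX:20933395-20950608, minus strand) is a ternary complex factor, which binds DNA with SRF and is activated by ERK. It stood at 18.1 TPM from 2768 counts in replicate 2 and 15.1 TPM from 3080 counts in replicate 1, averaging 16.6 ± 2.14 TPM (SD, n = 2). One complete model, encoding 429 residues, held 99.5% of its TPM in replicate 2 and 99.6% in replicate 1. Srf was 4.45 times Elk1 in replicate 2 and 5.46 times in replicate 1.

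Of 15 listed genes of the RAS and ERK pathway 12 were detected, against 39% of protein-coding genes. The list median was 17.1 TPM. The kinase Mapk3, which phosphorylates ETS factors, stood at 40.3 ± 5.78 TPM, and Map2k2, which activates it, at 390 ± 32.8 TPM (SD, n = 2 each). The inhibitor Spred2 and the GTPase Hras had means of 76.7 and 49.96 TPM. Dusp5 and Dusp6, phosphatases induced by ERK in many cells, had no count. Of 12 known targets of SRF and its ETS partners 7 were detected, against the same 39%, and the list median was 4.28 TPM. They were led by Mcl1, a survival factor, at 394 TPM, Ier2 at 143 TPM, Srf itself at 81.5 TPM and Junb at 81.2 TPM.

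Gabpa (chr16:84834925-84863779, plus strand) encodes the ETS subunit of GABP and was the lowest detected gene of the 10. It stood at 3.49 TPM from 720 counts in replicate 2 and 4.75 TPM from 1365 counts in replicate 1, averaging 4.12 ± 0.891 TPM (SD, n = 2). Its 4987-base model, encoding 454 residues, held 91.7% of its TPM in replicate 2 and 97.9% in replicate 1. GABPA binds with a beta subunit, and Gabpb1 was 1.60 times Gabpa in replicate 2 and 1.48 times in replicate 1. Gabpb2 was 1.15 times Gabpa in replicate 2 and 0.646 times in replicate 1, so its order against Gabpa was not the same in both libraries.

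Of 16 known GABP targets 13 were detected, against 39% of protein-coding genes. The median of all 16 was 11.6 TPM, beside 0.025 TPM over all protein-coding genes. Itgb2, Tnfrsf13c and Tfb1m fell short of the minimum, with means of 2.38, 0.54 and 0.53 TPM, Itgb2 through its 0.9 TPM in replicate 1. The 4 highest were genes of oxidative phosphorylation, Atp5b at 2507 ± 654 TPM, Cox5b at 2187 ± 382 TPM, Cox4i1 at 318 ± 12.9 TPM and Cox6b1 at 201 ± 119 TPM (SD, n = 2 each). Atp5j, which starts beside Gabpa on the opposite strand and overlaps it by 701 bases, was 20.8 times Gabpa in replicate 2 and 20.5 times in replicate 1. It was picked as the neighbour after its values had been seen. Reads in the overlap could belong to either gene, since the sources used here do not say whether counting used strand.

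Elf1 (chr14:79481194-79582494, plus strand), an activator of lymphoid and erythroid genes, stood at 6.98 TPM from 1278 counts in replicate 2 and 9.04 TPM from 2208 counts in replicate 1, averaging 8.01 ± 1.46 TPM (SD, n = 2). It overlaps Wbp4 on the opposite strand by 327 bases, with the same uncertainty. Elf2 likewise overlaps 4930577N17Rik by 1625 bases, which had 279 counts in replicate 2 and 585 in replicate 1. Elk1 overlaps Uxt by 8887 bases on the same strand, and Uxt had 409 counts in replicate 2 and 690 in replicate 1. Of the transcribed 31-base words of Elf1 4.81% also occur in other genes in the same orientation, the highest share among the 10, and for Spi1, Ets2 and Gabpa that share was 0. In the opposite orientation it was 9.09% for Elf1, 5.51% for Gabpa, all of that with Atp5j, and 0 for Spi1 and Ets2. Of 21 listed partners of ETS factors 17 were detected, against 39% of protein-coding genes, and the list median was 28.4 TPM. Among the highest were Gata1, Gata2 and Tal1, the last at 239 TPM. The listed partners Cebpa, Irf4 and Irf8 had no count.

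Of the other 16 ETS genes 6, or 37.5%, were detected, against 39% of protein-coding genes, so that 14 of 26 were in all. Erf, a repressor that ERK sends out of the nucleus, was the highest of the whole family, at 138 TPM in replicate 2 against 178 TPM in replicate 1, and on complete models it kept that place, at 158 ± 27.9 TPM (SD, n = 2). Etv5 stood at 106 TPM in replicate 2 against 154 TPM in replicate 1, but its complete models at 16.6 TPM in replicate 2 against 10.5 TPM in replicate 1. Elf4 had a mean of 14.3 TPM, the repressor Etv3 12.1 TPM, Elk4, a relative of Elk1, 5.09 TPM and Etv4 3.17 TPM. Complete models of Etv4 gave 0.32 TPM in replicate 2 against 0.41 TPM in replicate 1, so that 13 of the 26 were detected on that scale. The 39% of protein-coding genes is over all models, and the share on complete models was not computed. Elf3, Elf5, Etv1, Etv2 and Spic had no count, as Ets1 had none. The rest, Spib, Spdef, Elk3, Ehf and Fev, were at 0.11 TPM or less.

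**Figure D3:**
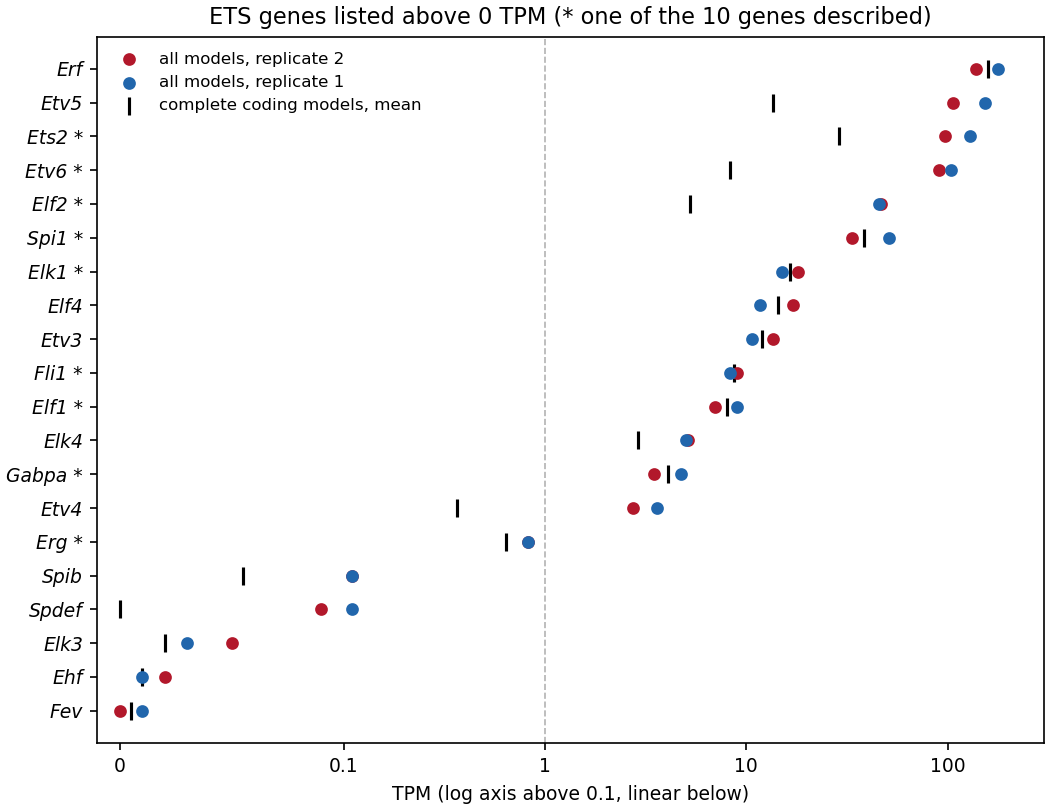
Level in TPM (log axis above 0.1, linear below, dashed line at 1) of the ETS genes listed above 0 TPM, with points for replicate 2 and replicate 1 over all transcript models and a vertical mark for the mean of complete coding models; asterisks mark the 10 genes described. Erf is the highest on both scales, and the marks of Etv5, Ets2, Etv6, Elf2 and Etv4 lie well left of their points.

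The libraries were compared gene by gene with an exact two-sided binomial test on rounded counts, scaled by trimmed means (TMM) and adjusted by Benjamini-Hochberg over 10863 genes whose mean count was 10 or more. This compares 2 libraries of one group, not conditions, and its error covers counting alone. It called 7 of the 9 genes tested, against 69.1% of all genes tested. Higher in replicate 2 were 3, against 34.7% of all genes, and higher in replicate 1 were 4, against 34.4%. None of the 9 was both called and at least 2-fold apart, against 9.13% of all genes. With a coefficient of variation of 0.1 added to the counting error none of the 9 was called, against 19.1% of all genes, and the coefficient of variation between the libraries over all genes was 0.300 by edgeR.

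Spi1 had the lowest log2 ratio of replicate 2 over replicate 1, at -0.42 (exact binomial test, adjusted p = 3.5e-34). Gabpa followed at -0.41 (adjusted p = 1.3e-09), Elf1 at -0.27 (adjusted p = 1.2e-07) and Elf2 at -0.13 (adjusted p = 0.016), all by the same exact test. Elk1 was higher in replicate 2 by 0.36 (adjusted p = 8.3e-21), Etv6 by 0.35 (adjusted p = 1.4e-29) and Fli1 by 0.21 (adjusted p = 0.00020), again by the exact test. The Fli1 call was lost when libraries were scaled by their totals (adjusted p = 0.073 by the exact test). The ratio of Ets2 was 0.04 (adjusted p = 0.13 by the exact test) and was -0.067 with library totals, and that of Erg was 0.13 (adjusted p = 0.71 by the exact test).

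**Figure D4:**
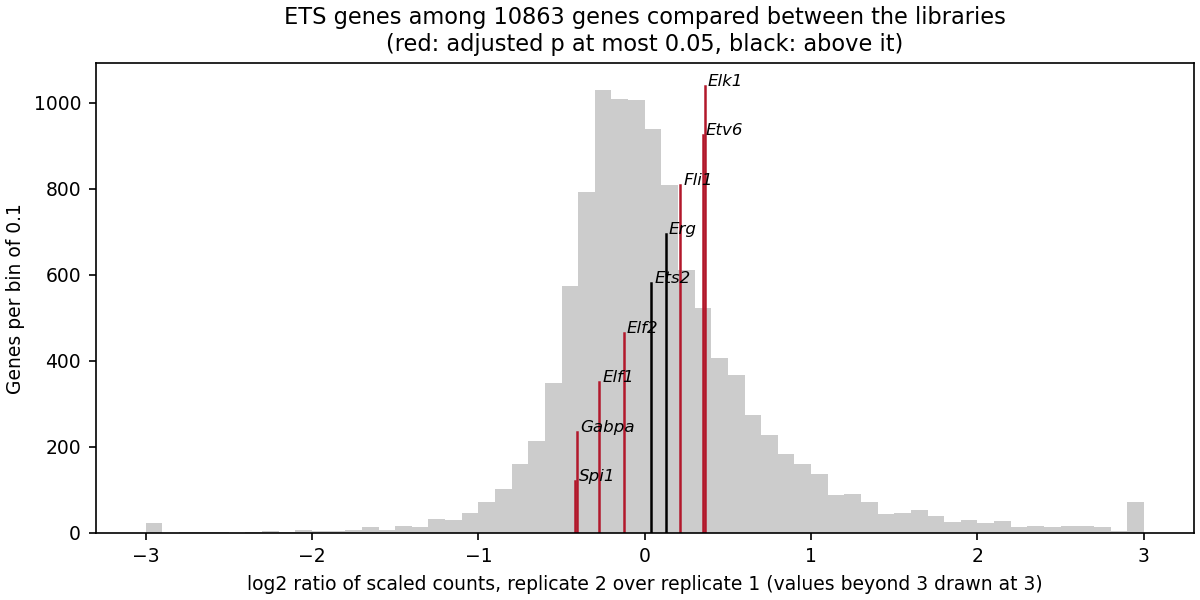
Histogram of the log2 ratio of scaled counts, replicate 2 over replicate 1, over 10863 genes in bins of 0.1, with a labelled line for each of the 9 ETS genes tested; line height separates the labels and carries no value. All 9 lines lie between -0.42 and 0.36, inside the bulk of the histogram.

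For 3 of the 9 genes the direction of the TPM differed from that of the scaled counts, against 12.8% of all genes tested. Etv6 had more scaled counts in replicate 2, by 0.35 on the log2 scale, but less TPM, by a log2 ratio of -0.20. Ets2 had a log2 ratio of 0.04 in scaled counts and -0.41 in TPM, and Elf2 one of -0.13 in scaled counts and 0.03 in TPM. These are the 3 genes with most TPM outside complete models, and TPM weights a count by the length of the model it is assigned to.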

How the data were processed

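RNA described as polyadenylated was sequenced from G1E-ER4 cells, and the gene and transcript tables of 2 libraries were used. Expected counts are estimates by the authors, per the file headers, and hold fractions of reads. The authors deposited TPM, FPKM and posterior mean TPM for every gene, per the file headers. Isoform shares were deposited by the authors as a percent of summed transcript TPM within a gene. Per the labels the build is mm10, and per the readme texts the annotation is GENCODE M4. Aligner, quantifier and use of strand: not given in the sources used here.

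Gene names, transcript classes and positions were taken from GENCODE M21 by identifier without version, which matched 42462 of 43346 Ensembl genes. Of 53 transcript models of the 10 genes 45 were in M21, 42 of them with the same length. A model absent from M21 was not counted as complete coding. Promoter windows came from a RefSeq table.

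The genes, lists and tests were chosen with earlier results of these data known. Named were all 10 genes, detected ETS relatives and those without counts, the 4 highest genes of each list and a set of fixed partners. Beyond that rule, other list genes, cell type examples and neighbours were named after their values were seen, and most trace genes of other cell types were left out. A few items that the rule covers are not reported here. Levels are means and SDs over both libraries, and detected means at least 1 TPM in both. Expected counts were rounded for tests. Scaling and the coefficient of variation came from edgeR 4.0.16 and alternative size factors from DESeq2 1.42.0 in R 4.3.3. The exact binomial test ran in scipy 1.17.1 and was tested on simulated counts. Those counts held counting error alone, as the test assumes, so they do not show how it behaves with further variation between libraries. The added coefficient of variation used a normal approximation of the log ratio. Floors of 3 counts cover counting error only, since PCR copies are not independent molecules. Alternatives were other TPM minimums, units, scalings and filters, each library alone, and complete coding models.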

Additional observations from a re-analysis of the deposited data

How the results depend on the processing

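Of the counts, sums and ratios that answer a comparison, 117 values under alternatives stayed within 1.5 times the main count, or within 1 SD of the main value, and 7 moved further. Within those limits the FLI1 targets detected numbered 6 at a minimum of 0.5 TPM or in replicate 2 alone, against 4, and the ratio of Gata1 to Spi1 ranged between the single libraries from 29.3 to 72.4, around a mean of 50.8. Some of the 117 values could not have moved. For sums, shares and ratios either library alone always lies within 1 SD of the mean when n = 2. Leaving out the 20 most abundant genes rescales the others alike, which fixes the Ets2 share and the ratio of Gata1 to Spi1. At a minimum of 2 TPM, 1 PU.1 target was detected in place of 2. The summed TPM of the 10 genes was 437 without the 20 most abundant genes and 119 on complete coding models, an alternative chosen after the data were seen, against 337 as reported. On complete models Ets2 held 24.5% of the sum, against 33.4%. With a coefficient of variation of 0.1 added, 0 genes differed between the libraries, 0 higher in replicate 2 and 0 higher in replicate 1, against 7, 3 and 4. Of all genes tested 19.1% differed under that setting, 14.35% higher in replicate 2 and 4.70% higher in replicate 1. The smallest adjusted p among the 9 was 0.15 by the normal approximation, that of Spi1. With library totals, which moved the median log2 ratio of all genes to -0.12, the ratio of Ets2 reversed to -0.067 (adjusted p = 0.0059 by the exact binomial test). Under that scaling 2 genes were higher in replicate 2, against 28.2% of all genes, and 5 were higher in replicate 1, against 43.8%. Depth limits Erg, whose counts were 55 in replicate 2 and 72 in replicate 1, and the class given to short models sets the levels of Ets2, Etv6 and Elf2 on complete models.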
